A study of Mus musculus with 28 samples.

Results

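The transcripts of 10 genes of the DLK and JNK injury pathway were followed in mouse retina after optic nerve crush. They encode the kinases DLK (Map3k12) and LZK (Map3k13), the kinases MKK4 (Map2k4) and MKK7 (Map2k7), the JNKs JNK1 (Mapk8), JNK2 (Mapk9) and JNK3 (Mapk10), and the stress transcription factors c-Jun (Jun), ATF3 (Atf3) and CHOP (Ddit3). The genes were taken by symbol from a deposited table of 35999 genes. All 10 were found, and all 10 passed the filter on low values, a mean normalized count of at least 10, which 15773 genes passed.

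Polyadenylated RNA of whole retina was sequenced in bulk from each eye of male and female mice. Crush was done on the right optic nerve only (ONC), and the left eye served as CTRL, so that side and crush were the same factor and each control eye came from an operated animal. Each animal received daily intraperitoneal vehicle or RGFP966, which inhibits the histone deacetylase HDAC3, at 10 mg/kg for 7 days, and the retinas were collected 7 days after the crush. The 4 groups were therefore vehicle CTRL, vehicle ONC, RGFP966 CTRL and RGFP966 ONC. The 6 vehicle mice (2 females, 4 males) and 7 RGFP966 mice (3 females, 4 males) gave 26 libraries from 13 mice. The labels give neither strain nor age. Of 28 columns, 2 carried the same name, that of vehicle CTRL female B, and were not used. The labels of RGFP966 CTRL female A disagree, since a description speaks of crush while title and condition name an uncrushed eye, and it was used as uncrushed. Its Atf3 level, 94.4 normalized counts, was the lowest of the 26 libraries. Atf3 is itself tested below with this library as a control, so that level is no check of the label. Outside the 10 genes, the lowest sum of 13 retinal ganglion cell markers in RGFP966 CTRL, this library included, was 9787. The highest in RGFP966 ONC was 5440.

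The values were counts normalized by the authors with DESeq2, not divided by transcript length, and their sums ran from 17700000 to 21900000 per library. The labelled tissue was checked against markers. Rod markers had the largest sums, and the sum of 13 retinal ganglion cell markers ran from 8889 to 16139 in vehicle CTRL, from 3170 to 5158 in vehicle ONC, from 9787 to 14573 in RGFP966 CTRL and from 3138 to 5440 in RGFP966 ONC. Of these markers 12 of 13 fell with crush over both drug arms, while 8 of 8 microglia markers rose, their sum running from 833 to 1636 in vehicle CTRL, from 2536 to 4880 in vehicle ONC, from 1105 to 1394 in RGFP966 CTRL and from 2362 to 4239 in RGFP966 ONC. None of the ganglion cell or microglia markers was listed at 0 in any library. In bulk retina, fewer cells of a type and less RNA per cell cannot be told apart, and this holds for every value given here. A few libraries stood apart. Vehicle CTRL male D had the highest sum of 5 rod markers, 2195610 against a group median of 1502970, and the lowest sum of 8 amacrine and bipolar markers, 13442 against a median of 19190. RGFP966 CTRL male A had the highest sum of lens, pigment epithelium and muscle markers, 36769 against a group median of 344. The crush effects of Atf3 and Jun over both arms are given with and without each of these libraries. That of Ddit3 is given with and without vehicle CTRL male D.

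DLK and LZK are kinases that respond to axon injury. They phosphorylate MKK4 and MKK7, which phosphorylate the JNKs, and activated JNK phosphorylates c-Jun. In retinal ganglion cells this cascade is known to be needed both for much of the cell death that follows axon injury and for the induction of injury genes. ATF3 is a partner of c-Jun that is induced by nerve injury, and CHOP is a transcription factor of the endoplasmic reticulum stress response that has been linked to ganglion cell death. Most steps of the cascade are changes of phosphorylation, protein stability and transport, which RNA abundance does not measure.

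The promoters of the transcription factor genes are shown because these genes are the end points of the cascade and their proteins bind the motifs searched for. The bases upstream of the annotated start were taken from RefSeq on GRCm38.p6, each written 5′ to 3′ on the gene's strand, with bases in annotated exons left out and motif matches in capitals. The short Atf3 line next to the start is an exception. It runs past the start site and holds the last 7 upstream bases, which lie in an annotated exon. Its match lies partly in those bases and is therefore cut off in the longer Atf3 line. The motifs were TGANTCA (AP-1 type), TNACNTCA (the octamer of c-Jun with ATF proteins) and TGATGNAA (the composite type bound by CHOP with ATF proteins), sought on both strands within 250 bases upstream. Some sites match more than one motif.
Jun, chr4:95052223-95052472, minus strand: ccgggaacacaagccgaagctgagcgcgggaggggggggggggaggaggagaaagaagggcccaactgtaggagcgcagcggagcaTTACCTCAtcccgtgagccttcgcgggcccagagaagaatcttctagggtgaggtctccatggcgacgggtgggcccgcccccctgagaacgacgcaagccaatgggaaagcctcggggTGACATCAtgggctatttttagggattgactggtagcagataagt
Atf3, chr1:191183341-191183583, minus strand: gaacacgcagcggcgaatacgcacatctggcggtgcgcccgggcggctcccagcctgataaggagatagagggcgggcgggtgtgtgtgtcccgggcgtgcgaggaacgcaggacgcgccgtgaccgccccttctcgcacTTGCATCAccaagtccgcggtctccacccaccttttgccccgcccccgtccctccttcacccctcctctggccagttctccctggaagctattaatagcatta
Atf3 next to the start, chr1:191183325-191183354, minus strand: tattaatagcaTTACGTCAgcctgggattg
Ddit3, chr10:127290543-127290773, plus strand: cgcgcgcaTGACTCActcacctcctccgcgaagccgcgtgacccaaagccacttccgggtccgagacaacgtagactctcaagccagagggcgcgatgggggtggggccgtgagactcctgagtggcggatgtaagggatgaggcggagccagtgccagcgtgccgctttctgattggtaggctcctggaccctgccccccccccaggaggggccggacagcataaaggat
The Jun promoter held TTACCTCA from -164 to -157 and TGACATCA from -45 to -38, counted from the start site. The Atf3 promoter held TTACGTCA from -10 to -3, and TTGCATCA, the reverse complement of a TGATGNAA match, from -110 to -103. The Ddit3 window held TGACTCA from -242 to -236. Among all 10 genes, which had 15 annotated promoters, TGANTCA was found for 2 (Ddit3 and Map2k7), TNACNTCA for 5 (Atf3, Jun, Map2k7, Map3k12 and Mapk10) and TGATGNAA for 3 (Atf3, Map2k7 and Map3k13). Of 27025 promoters of mouse genes, the first listed for each gene, 6.868% held TGANTCA, 14.054% held TNACNTCA and 3.53% held TGATGNAA. The 10 genes were counted over all their promoters, so their counts and these shares are not like measures. The matches of Map2k7 and Map3k12 lay outside their first listed promoter. A match describes the letters in this window and not a bound site.

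All 10 transcripts were detected in every library. By mean normalized count over the 26 libraries, Mapk9 (2379) and Map2k7 (2202) lay highest, at the 90.85th and 89.79th percentile of the genes tested, and Atf3 (219) lay lowest, at the 39.55th percentile. These counts are not divided by length, so levels of the 10 genes were also compared per kilobase of the longest coding transcript. In vehicle CTRL eyes the order by mean ± SD (n = 6) was Ddit3 at 719 ± 78.0 normalized counts per kilobase, Map2k7 at 599 ± 63.8, Mapk9 at 563 ± 31.5, Map3k12 at 348 ± 37.6, Map2k4 at 266 ± 11.2, Jun at 249.9 ± 38.2, Mapk8 at 245 ± 20.0, Mapk10 at 101 ± 28.9, Map3k13 at 84.4 ± 6.58 and Atf3 at 67.4 ± 18.7. Ranges of 1 SD overlapped between Ddit3 and Map2k7, between Map2k7 and Mapk9, among Map2k4, Jun and Mapk8, and among Mapk10, Map3k13 and Atf3. DLK transcript was thus more abundant per length than LZK transcript, and JNK2 transcript more abundant than that of JNK3. The upper part of the order rests on the transcript chosen: per kilobase of the median coding transcript, Map2k4 had a mean of 1263 and Mapk8 of 924, against 563 for Mapk9 and 763 for Map3k12.

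**Figure D1:**
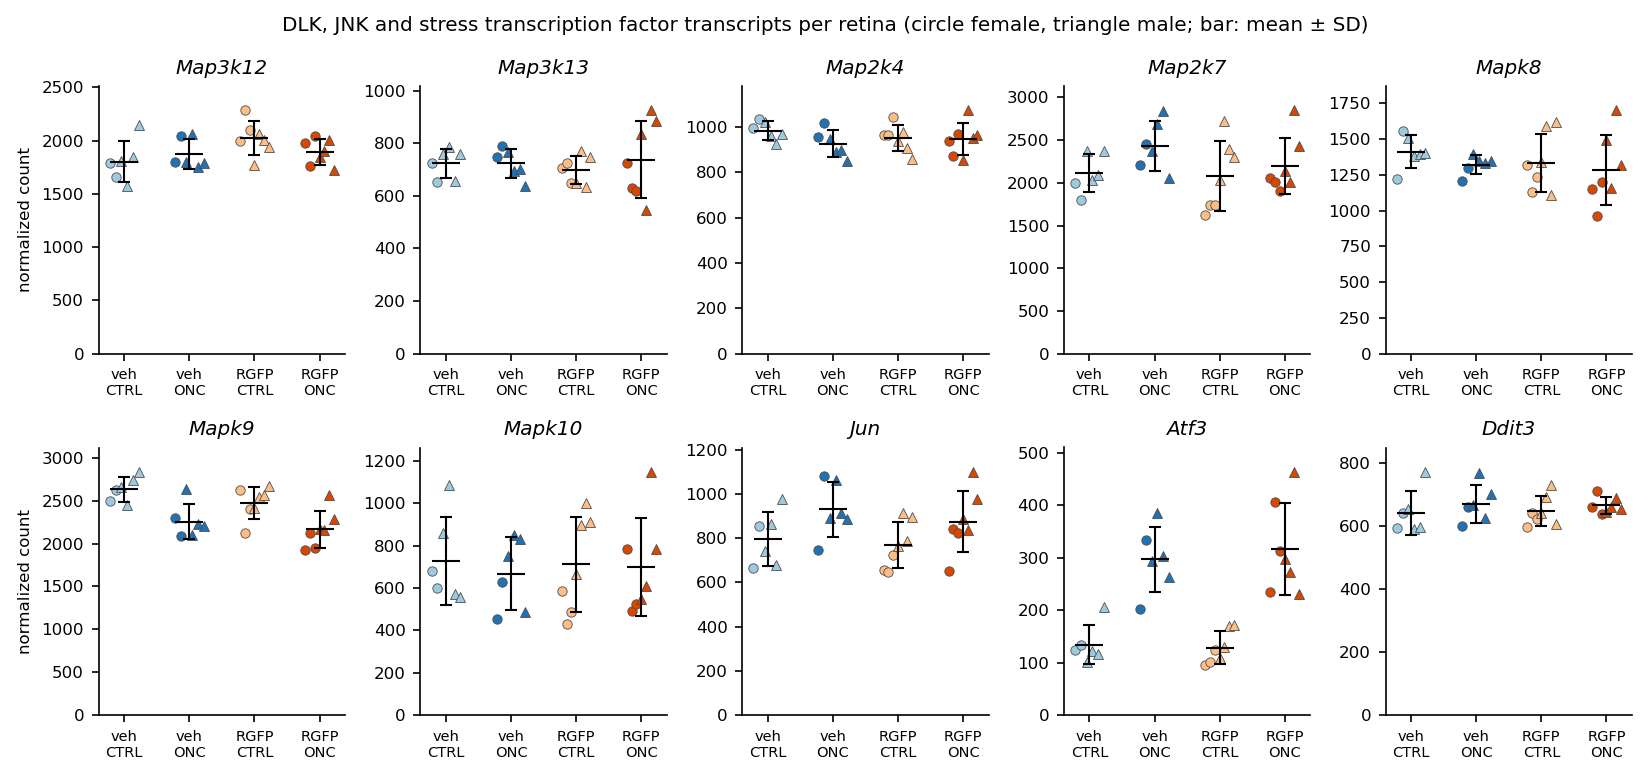
Normalized count (linear axis from 0) of each of the 10 genes in every library of vehicle CTRL, vehicle ONC, RGFP966 CTRL and RGFP966 ONC, with circles for females, triangles for males and bars for the group mean ± SD. Atf3 is the panel in which crushed eyes lie well above uncrushed eyes in both drug arms, with group medians of 298 against 123. Mapk9 lies somewhat lower in crushed eyes with overlapping ranges, and the other panels overlap widely.

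Most of these transcripts were not called with crush, as held for most genes tested. A gene was called when its adjusted p in limma was under 0.05 after Benjamini-Hochberg adjustment over all genes tested. In vehicle mice 2 of 10 were called, Atf3 higher and Mapk9 lower, where 5.34% of all genes tested were called, 3.69% as higher and 1.65% as lower. In RGFP966 mice 1 of 10, Atf3, was called, where 4.67% of all genes were, 3.34% as higher. Over both drug arms, which averages the effect in each arm, 2 of 10 were called, Atf3 higher and Mapk9 lower, against a background of 11.8%, with 6.78% higher and 4.98% lower. The median log2 change of the 10 genes over both arms was 0.01, against -0.01 for all genes tested.

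**Figure D2:**
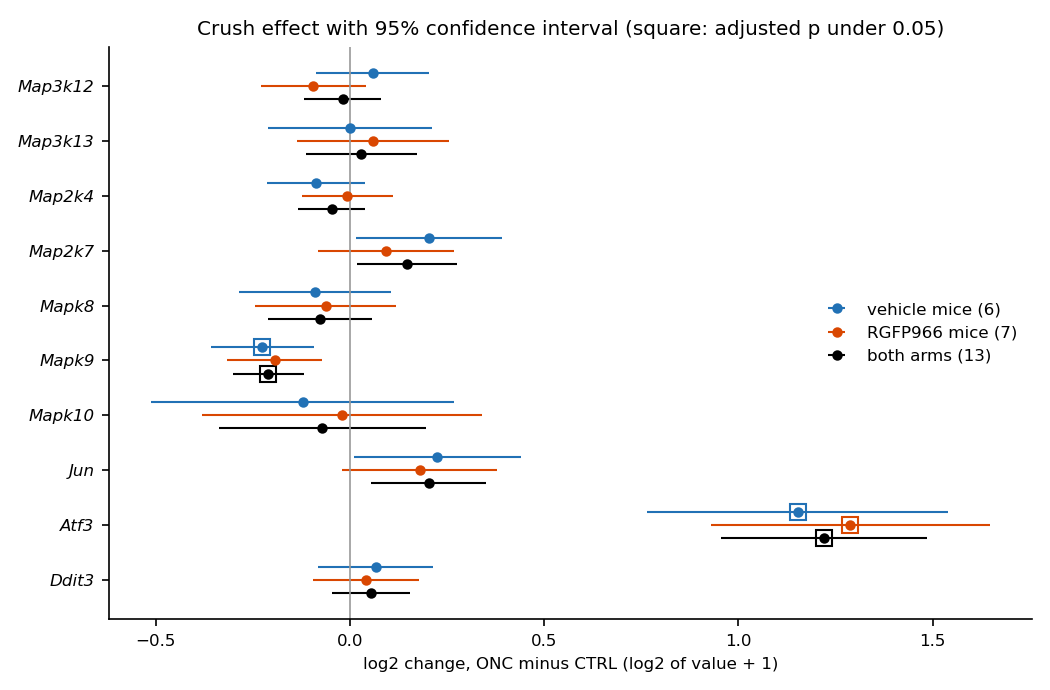
Crush effect, as log2 change of ONC against CTRL eyes on log2(value + 1), of each gene in vehicle mice, in RGFP966 mice and over both arms, with 95% confidence intervals from limma and squares for adjusted p under 0.05. Atf3 stands at 1.15, 1.29 and 1.22, Mapk9 lies left of 0 in all 3 comparisons, and the intervals of Mapk10 are the widest of the other genes.

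Map3k12 lies on chromosome 15 from 102497646 to 102517064 (GENCODE vM21, GRCm38, minus strand) and encodes DLK, the kinase at the head of the cascade. Its lowest, median and highest normalized counts were 1577, 1798 and 2144 in vehicle CTRL, 1755, 1797 and 2063 in vehicle ONC, 1774, 2004 and 2285 in RGFP966 CTRL, and 1727, 1905 and 2040 in RGFP966 ONC. The 4 ranges overlapped. The crush effect over both arms was a log2 change of -0.02 ± 0.05 (SE; adjusted p = 0.87), with a 95% confidence interval of -7.80 to 5.78% of the control level. Map3k13 on chromosome 16 (21794346 to 21933439, plus strand) encodes LZK, which can act alongside DLK. It ranged from 654 to 787 in vehicle CTRL with a median of 743, from 636 to 792 in vehicle ONC with a median of 727, from 634 to 771 in RGFP966 CTRL with a median of 707, and from 548 to 926 in RGFP966 ONC with a median of 726. The last of these groups was the most spread, with a coefficient of variation of 19.8% against 7.75 to 7.82% in the others. Its log2 change over both arms was 0.03 ± 0.07 (adjusted p = 0.86), with an interval of -7.61 to 12.8%. The transcript levels of both kinases therefore moved by less than the spread between animals.

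The MAP2K transcripts did not pass the threshold. Map2k4 (MKK4; chromosome 11, 65688243 to 65788297, minus strand) was the steadiest of the 10 genes in vehicle CTRL eyes, at 923 to 1035 normalized counts with a median of 981 and a coefficient of variation of 4.21%. It ran from 849.5 to 1019 in vehicle ONC (median 922), from 857 to 1043 in RGFP966 CTRL (median 963) and from 853 to 1073 in RGFP966 ONC (median 952), and its log2 change over both arms was -0.05 ± 0.04 (adjusted p = 0.56). Map2k7 (MKK7; chromosome 8, 4238740 to 4247897, plus strand), which prefers the JNKs as substrates, ran from 1805 to 2375 in vehicle CTRL (median 2064), from 2054 to 2838 in vehicle ONC (median 2409), from 1622 to 2730 in RGFP966 CTRL (median 2029) and from 1908 to 2850 in RGFP966 ONC (median 2059). These ranges overlapped, and the log2 change over both arms was 0.15 ± 0.06 (unadjusted p = 0.026, adjusted p = 0.14). Within mice, Map2k7 was higher in the crushed eye of 10 of 13 animals, with an exact two-sided sign-flip permutation p of 0.070. Leaving out vehicle ONC male D brought the adjusted p to 0.042 with a log2 change of 0.18, and rescaling the libraries to the same total brought it to 0.013. The adjusted p over all single omissions ran from 0.042 to 0.24.

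Mapk9, which encodes JNK2 (chromosome 11, 49846751 to 49886421, plus strand), was the kinase transcript that fell. It ran from 2447 to 2836 normalized counts in vehicle CTRL (median 2643) and from 2086 to 2632 in vehicle ONC (median 2213). In RGFP966 mice it ran from 2120 to 2674 in CTRL (median 2542) and from 1930 to 2569 in ONC (median 2153). The ranges overlapped in both arms. Vehicle ONC male A, at 2632, and RGFP966 ONC male C, at 2569, were the highest crushed eyes of their arms and lay within the range of uncrushed eyes. RGFP966 CTRL female B, at 2120, was the lowest uncrushed eye. The RGFP966 CTRL median lay below the highest crushed eye, so most uncrushed eyes of that arm lay within the crushed range. In vehicle mice the uncrushed eyes from 2447 to 2623 did so. The log2 change over both arms was -0.21 ± 0.04 (adjusted p = 0.0014), a change in level of -13.5% with a 95% confidence interval of -18.8 to -7.92%. In vehicle mice it was -0.23 ± 0.07 (adjusted p = 0.037), and in RGFP966 mice -0.19 ± 0.06 (adjusted p = 0.063), which did not pass. The crushed eye had the lower value in 12 of 13 mice, by a mean log2 difference of -0.21 ± 0.14 (SD), with an exact two-sided permutation p of 7.3e-04.

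Whether Mapk9 passed in vehicle mice depended on the setting, while its log2 change moved little with the block or the omissions. With mouse as a fixed block the call was lost (adjusted p = 0.080) at the same log2 change of -0.23, and with mouse as a random effect it was kept (adjusted p = 0.042). It was also lost when any of 9 of the 26 libraries was left out, with log2 changes of -0.26 to -0.20 and adjusted p between 0.013 and 0.10 over all such omissions. Over both arms it passed whichever library was left out (adjusted p 3.7e-04 to 0.0036). When libraries were rescaled to the same total, the median log2 change of all genes moved from -0.01 to 0.08 over both arms and 86.2% rather than 57.6% of the called genes were higher. Mapk9 then stood at -0.12 (adjusted p = 0.072), which is -0.20 below that median. In the same eyes 5 of 5 rod markers fell, with a median log2 change of -0.34, and their sum ran from 1400020 to 2195610 in vehicle CTRL, 1044670 to 1420730 in vehicle ONC, 1290250 to 1568500 in RGFP966 CTRL and 963440 to 1484520 in RGFP966 ONC. Of 8 Müller glia and astrocyte markers 5 rose and 2 fell, their sum running from 58480 to 70038 in vehicle CTRL, 46449 to 69327 in vehicle ONC, 56118 to 68754 in RGFP966 CTRL and 50131 to 71999 in RGFP966 ONC. Ganglion cell markers were lower and microglia markers higher as given above, and the part of these cell types in the lower Mapk9 level was not tested.

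The other JNK transcripts did not pass. Mapk8 (JNK1; chromosome 14, 33377898 to 33447158, minus strand) ran from 1223 to 1556 in vehicle CTRL (median 1400), 1206 to 1399 in vehicle ONC (median 1342), 1108 to 1619 in RGFP966 CTRL (median 1316) and 964 to 1702 in RGFP966 ONC (median 1197). Its log2 change over both arms was -0.08 ± 0.06 (adjusted p = 0.53), and it was lower in the crushed eye of 11 of 13 mice, in 6 of 6 vehicle mice and 5 of 7 RGFP966 mice. The exact permutation p over 13 mice was 0.32, and RGFP966 male C had the highest response, 0.62 on the log2 scale. Without that mouse the mean response was -0.13 in place of -0.08, with an exact permutation p of 0.015. Leaving out the mouse with the most opposed response lowers this p by the choice itself, so the value is a description. Mapk10 (JNK3; chromosome 5, 102907948 to 103211334, minus strand), the JNK found mainly in neurons, was the most variable gene between animals, with a coefficient of variation of 25.8 to 33.1% in the 4 groups against 5.60 to 10.0% for Mapk9. It ran from 559 to 1087 in vehicle CTRL (median 641), 452 to 853 in vehicle ONC (median 691), 428 to 1001 in RGFP966 CTRL (median 669) and 491 to 1150 in RGFP966 ONC (median 610). The 4 ranges overlapped widely, and its log2 change of -0.07 ± 0.13 had an interval of -20.8 to 14.5%, so that a change of the size seen for Mapk9 was not detectable. The Mapk9 to Mapk8 ratio within a library, chosen after the data were seen, had a median of 1.87 in CTRL eyes and 1.67 in ONC eyes and was lower in 9 of 13 mice (exact permutation p = 0.066, adjusted p = 0.13 over 6 ratios), so that a fall of Mapk9 beyond that of Mapk8 did not pass.

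Atf3 rose with crush in every mouse. The gene lies on chromosome 1 from 191170296 to 191218039 on the minus strand and encodes a transcription factor widely used as a marker of injured neurons. Its lowest, median and highest normalized counts were 102, 123 and 207 in vehicle CTRL and 201, 298 and 386 in vehicle ONC. In RGFP966 mice they were 94.4, 123 and 171 in CTRL and 229.8, 298 and 463 in ONC. The RGFP966 groups did not overlap. The vehicle groups overlapped because of vehicle CTRL male D, at 207, and vehicle ONC female A, at 201. The log2 change over both arms was 1.22 ± 0.13 (adjusted p = 5.6e-08), a level 133% higher with a 95% confidence interval of 94.0 to 179.9%. Without vehicle CTRL male D it was 1.28 (adjusted p = 1.6e-08), and without RGFP966 CTRL male A, the library with the highest lens marker sum, 1.20 (adjusted p = 1.5e-07). Without RGFP966 CTRL female A, whose labels disagree, it was 1.19 (adjusted p = 1.7e-07). The crushed eye was higher in 13 of 13 mice, by 0.34 to 1.99 on the log2 scale with a mean of 1.23 ± 0.48 (SD), and the exact two-sided permutation p of 2.4e-04 is the smallest that 13 mice can give. The rise was smallest in vehicle male D (0.34) and RGFP966 male D (0.43), the mice with the highest Atf3 in the uncrushed eye of their arm, and largest in RGFP966 female B (1.99). RGFP966 male C had nearly the same uncrushed level as RGFP966 male D (170.5 against 170.8) and rose by 1.44. The response subtracts the uncrushed level, so it is not independent of that level.

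Jun showed a smaller difference that was near the threshold. It lies on chromosome 4 from 95049034 to 95052222 on the minus strand, has a single exon, and encodes the main nuclear target of the JNKs. The antisense gene Junos overlaps it in the annotation, and reads of the pair cannot be told apart, since no source used here gives the strand setting of the counting. Jun ran from 666 to 977 in vehicle CTRL (median 798), from 746 to 1082 in vehicle ONC (median 902), from 646 to 914 in RGFP966 CTRL (median 763) and from 651 to 1100 in RGFP966 ONC (median 843). The groups overlapped over most of their range. The log2 change over both arms was 0.20 ± 0.07 (unadjusted p = 0.0089, adjusted p = 0.068), a difference of 15.0% with an interval of 3.89 to 27.4%. By arm it was 0.23 ± 0.11 in vehicle mice (adjusted p = 0.28) and 0.18 ± 0.10 in RGFP966 mice (adjusted p = 0.41).

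The Jun call over both arms depended on the setting. With mouse as a fixed block the adjusted p was 0.039 at the same log2 change, and with mouse as a random effect it was 0.077. Jun also passed with quantile normalization (0.21, adjusted p = 0.048), with array weights (0.21, adjusted p = 0.035) and with libraries rescaled to the same total (0.30, adjusted p = 0.0032), where the median of all genes was 0.08. The crushed eye was higher in 10 of 13 mice, by a mean log2 difference of 0.20 ± 0.20 (SD; exact two-sided permutation p = 0.0051). The animals in which it was lower were vehicle male D (-0.14), RGFP966 male B (-0.12) and RGFP966 female A (-0.01). Leaving out vehicle CTRL male D gave 0.23 (adjusted p = 0.040), leaving out vehicle CTRL female C gave 0.23 (adjusted p = 0.037), and leaving out RGFP966 ONC female A gave 0.23 (adjusted p = 0.033). These omissions took out a high uncrushed or a low crushed eye, which raises the effect by the choice itself, so they are a description. Leaving out RGFP966 CTRL male A gave 0.19 (adjusted p = 0.099), and leaving out RGFP966 CTRL female A gave 0.19 (adjusted p = 0.10). The adjusted p over all single omissions ran from 0.033 to 0.15.

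Ddit3 did not change detectably. It lies on chromosome 10 from 127290774 to 127296288 on the plus strand, overlaps another annotated entry of the same name, and encodes CHOP, a factor induced by the integrated stress response. Its normalized counts ran from 591 to 771 in vehicle CTRL (median 618), 598 to 767 in vehicle ONC (median 662), 597 to 728 in RGFP966 CTRL (median 640) and 639 to 712 in RGFP966 ONC (median 659). The ranges of crushed eyes lay inside or close to those of uncrushed eyes. The log2 change over both arms was 0.05 ± 0.05 (adjusted p = 0.57), and its interval of -3.20 to 11.3% excluded a change of the size of that of Atf3. Leaving out vehicle CTRL male D gave 0.08 (adjusted p = 0.33). The crushed eye was higher in 10 of 13 mice by a mean of 0.05 ± 0.13 (SD; exact permutation p = 0.16). Under rescaling to the same total it read 0.15 (adjusted p = 0.034), where the median of all genes read 0.08.

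**Figure D3:**
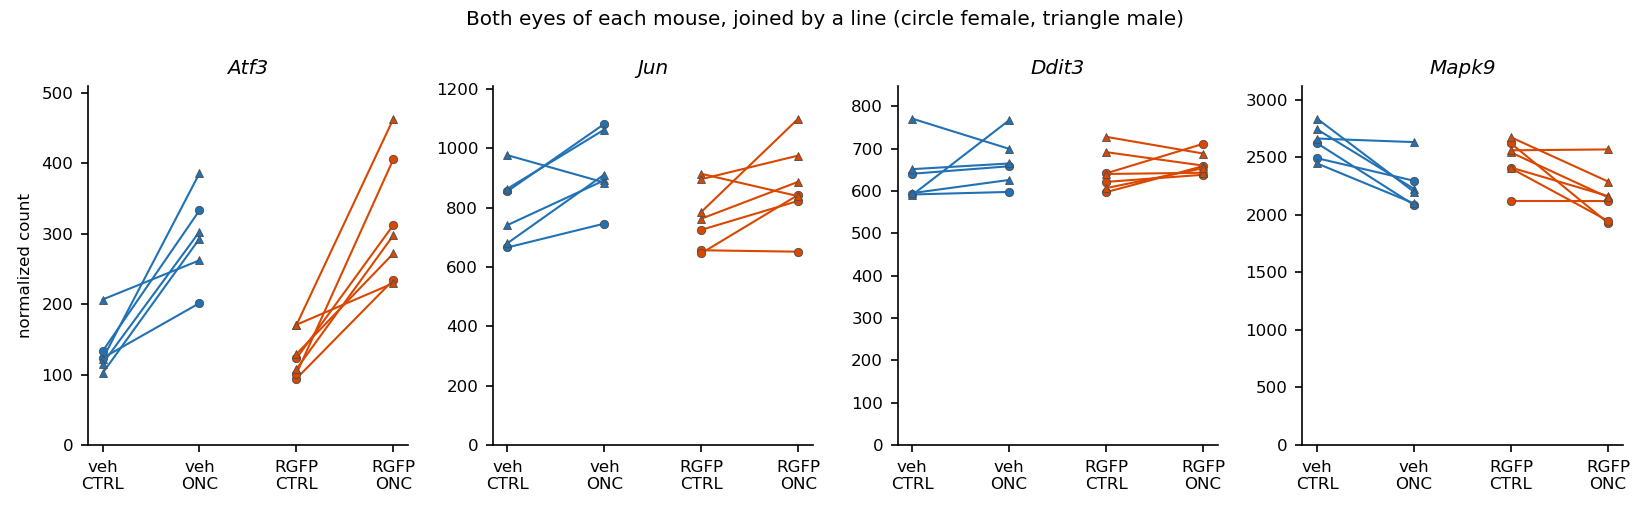
Normalized count (linear axis from 0) of Atf3, Jun, Ddit3 and Mapk9 in the uncrushed and crushed eye of each mouse, joined by a line, for 6 vehicle mice in blue and 7 RGFP966 mice in orange, with circles for females and triangles for males. Every Atf3 line rises, 10 of 13 Jun lines rise, and 12 of 13 Mapk9 lines fall.

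The responses of Jun and Atf3 were compared across mice, as the log2 difference between the crushed and the uncrushed eye. Over 13 mice Pearson's r was 0.64 (permutation p = 0.017, adjusted p = 0.051 over 3 relations) and Spearman's rho was 0.74 (permutation p = 0.0052, adjusted p = 0.016). Without the 2 mice farthest from the median Jun response, r was 0.51. Within vehicle mice r was 0.86 (n = 6, exact permutation p = 0.028, adjusted p = 0.083), and within RGFP966 mice it was 0.52 (n = 7, exact permutation p = 0.23, adjusted p = 0.34). Over all 13 mice, those with a larger Jun response thus tended to have a larger Atf3 response, by rank but not by Pearson's r after adjustment. The rank relation did not pass within either arm. Spearman's rho was 0.54 in vehicle mice (exact permutation p = 0.30, adjusted p = 0.45) and 0.79 in RGFP966 mice (exact permutation p = 0.048, adjusted p = 0.072). The Atf3 to Jun ratio within a library, chosen after the data were seen, rose in 13 of 13 mice, from a median of 0.157 in CTRL eyes to 0.332 in ONC eyes (exact permutation p = 2.4e-04, adjusted p = 0.0015 over 6 ratios). Vehicle male D had the lowest response of the 13 mice for both genes.

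The relation of Jun and Ddit3 responses did not pass over 13 mice (r = 0.31, permutation p = 0.30, and rho = 0.27, permutation p = 0.37). Without the 2 mice farthest from the median Jun response r was -0.17, so that the pooled value rested on those mice. Within vehicle mice r was 0.59 (n = 6, exact permutation p = 0.23) and rho 0.83 (exact permutation p = 0.058). Within RGFP966 mice r was -0.05 (n = 7, exact permutation p = 0.90) and rho -0.11 (exact permutation p = 0.84). The Jun response and the mean response of 13 ganglion cell markers had r = 0.48 (permutation p = 0.099, adjusted p = 0.15) and rho = 0.52 (permutation p = 0.073, adjusted p = 0.11), and r = 0.80 without 2 mice. This relation did not hold within both arms. It was r = -0.10 in vehicle mice (n = 6, exact permutation p = 0.90) and r = 0.94 in RGFP966 mice (n = 7, exact permutation p = 0.0022, adjusted p = 0.0065), where a smaller loss of ganglion cell marker RNA went with a larger Jun response. The difference between the arms was not tested.

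RGFP966 moved none of the 10 genes past the threshold. In limma 0 of 10 were called in crushed eyes (0 at an unadjusted p under 0.05), 0 of 10 in uncrushed eyes (1 unadjusted) and 0 of 10 for the drug by crush interaction (0 unadjusted). Of all 15773 genes 0% were called in each of these comparisons, with 403, 782 and 327 genes at an unadjusted p under 0.05. The gene at an unadjusted p under 0.05 was Map3k12 in uncrushed eyes, with a mean of 2024 ± 156 (SD, n = 7) under RGFP966 and 1804 ± 195 (SD, n = 6) under vehicle. Its log2 difference was 0.17 ± 0.07 (unadjusted p = 0.023, adjusted p = 0.91), and its interaction was -0.15 ± 0.10 (unadjusted p = 0.13). For Atf3 in crushed eyes the drug difference was 6.83%, with a 95% confidence interval of -17.6 to 38.5%, and for Jun it was -5.05% (-17.8 to 9.72%). For Mapk9 it was -3.35% (-11.6 to 5.68%) and for Ddit3 0.08% (-9.35 to 10.5%).

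The crush effect was also compared between sexes. In limma 0 of 10 genes, against 0% of all genes, were called for the sex by crush interaction, and 0 of 10 had an unadjusted p under 0.05, as had 382 of all genes. The interaction of Map2k7 was -0.19 ± 0.13 (males minus females, unadjusted p = 0.14). Its crushed eye was higher in 5 of 5 females, by a mean log2 difference of 0.26 ± 0.13 (SD), and in 5 of 8 males, by 0.07 ± 0.30. Atf3 was higher in the crushed eye of 5 of 5 females and 8 of 8 males, by 1.33 ± 0.46 and 1.16 ± 0.51 (SD).

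Genes around the cascade were described from lists of its known parts, over both drug arms, with the same background of 11.8% called. Among 15 other MAP3K genes upstream of JNK, 1 fell and none rose, with a median log2 change of -0.01. That gene was Taok3, a TAO kinase, at -0.40 ± 0.05 (adjusted p = 1.5e-06). Its CTRL and ONC groups did not overlap in vehicle mice (3530 to 4640 against 2716 to 3113) or in RGFP966 mice (3828 to 4549 against 2672 to 3753). Map3k1, Map3k4 and Map3k10 had adjusted p of 0.087, 0.17 and 0.13. Among 7 MAP4K genes, whose products activate MAP3Ks, Tnik rose (0.43 ± 0.11, adjusted p = 0.011) and Map4k3 fell (-0.23 ± 0.05, adjusted p = 7.4e-04). Map4k4 and Mink1, which with Tnik are known to act upstream of DLK in neurons, stood at 0.14 (adjusted p = 0.33) and 0.01 (adjusted p = 0.93).

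Few regulators of the kinases were called, beside 11.8% of all genes tested. With lists this short, a share of that size also gives few calls. In limma 0 of 4 genes for DLK turnover and palmitoylation were called (0 at an unadjusted p under 0.05), among them Mycbp2, the ubiquitin ligase PHR1, at -0.16 ± 0.11 (adjusted p = 0.43), and Usp9x, a deubiquitinase, at -0.06 ± 0.07 (adjusted p = 0.69). None of 6 JNK scaffold genes was called in limma (0 unadjusted), among them Mapk8ip3, which encodes JIP3, at -0.03 ± 0.06 (adjusted p = 0.83). Of 7 tested genes for phosphatases that act on JNK, 1 rose, Dusp16 at 0.44 ± 0.07 (adjusted p = 6.6e-05), from a median of 425 to 536 in vehicle mice and from 365 to 505 in RGFP966 mice. Dusp2, the other listed phosphatase, was under the filter. Parallel MAP kinase arms had 0 of 6 called for p38 and 0 of 6 for ERK in limma, with 0 unadjusted in each.

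The partners of Jun and Atf3 rose in part. Of 12 tested AP-1 and ATF genes 4 rose and none fell, with 7 at an unadjusted p under 0.05 and a median log2 change of 0.19. Junb, a Jun relative, rose by 0.86 ± 0.09 (adjusted p = 3.3e-08), from 187 to 249 normalized counts in vehicle CTRL to 399 to 508 in vehicle ONC, and from 172 to 317 in RGFP966 CTRL to 331 to 508 in RGFP966 ONC. These groups did not overlap in either arm. Fosb rose by 1.04 ± 0.16 (adjusted p = 2.8e-05), Maff by 1.02 ± 0.20 (adjusted p = 6.9e-04) and Fosl2 by 0.53 ± 0.14 (adjusted p = 0.0085). Fos, the immediate early partner of Jun, stood at -0.04 ± 0.13 (adjusted p = 0.90), with medians of 199 in vehicle CTRL and 226 in vehicle ONC. Jund stood at 0.14 ± 0.06 (adjusted p = 0.13). Fosl1, Batf and Batf3 were under the filter. Many of these genes are also expressed in microglia, whose markers rose in the same eyes, and in other glia. Of 8 Müller glia and astrocyte markers 5 rose and 2 fell. The part of all these cells in the rises was not tested.

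**Figure D4:**
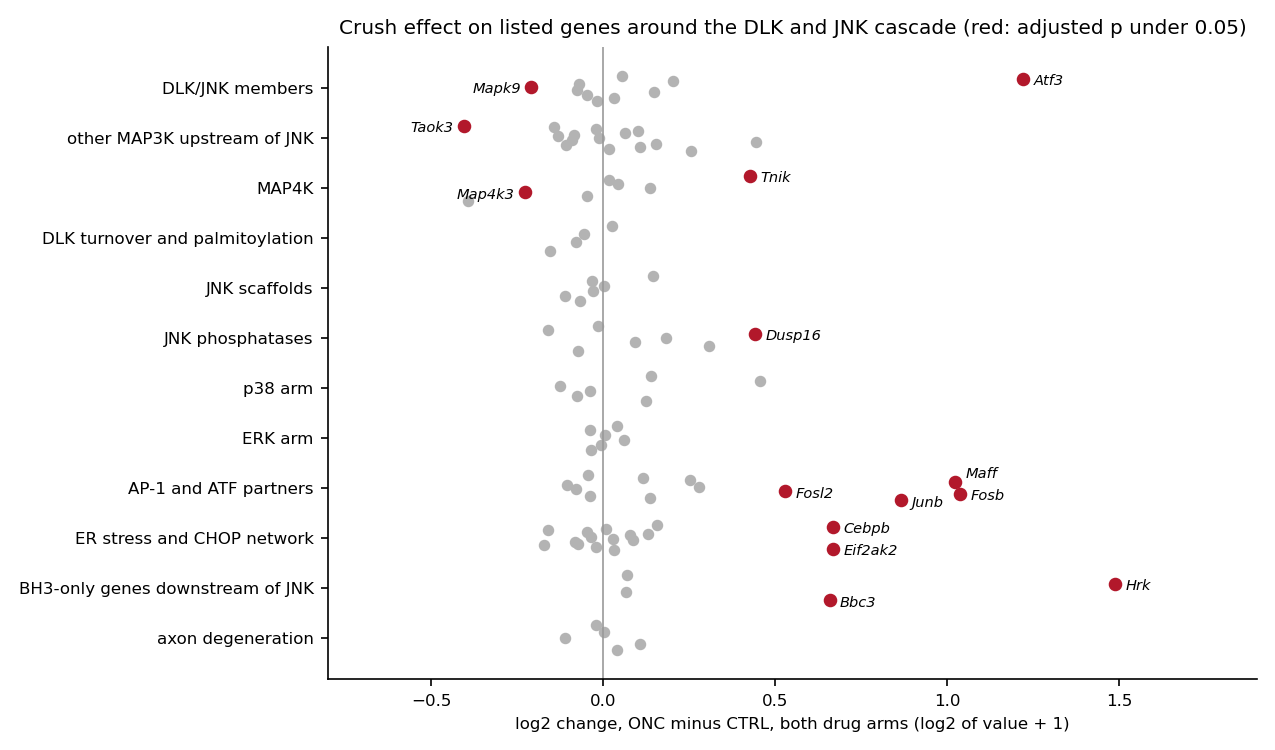
Crush effect over both drug arms, as log2 change on log2(value + 1), of every tested gene on 12 lists around the cascade, with 1 point per gene and named red points for adjusted p under 0.05. The lists of scaffolds, DLK turnover, p38, ERK and axon degeneration genes hold no red point, while AP-1 and ATF partners hold 4 and BH3-only genes 2.

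Listed targets of the cascade were mixed. Of 4 BH3-only genes, whose products promote apoptosis, 2 rose. Hrk rose by 1.49 ± 0.27 (adjusted p = 3.0e-04), from a median of 15.5 to 54.2 in vehicle mice and 16.0 to 47.1 in RGFP966 mice, although 1 uncrushed library of each arm, at 64.0 and 88.0, reached the crushed range. Bbc3, which encodes PUMA, rose by 0.66 ± 0.19 (adjusted p = 0.023), while Bcl2l11, which encodes BIM, stood at 0.07 ± 0.08 (adjusted p = 0.69) and Bmf at 0.07 ± 0.17 (adjusted p = 0.87). Of 4 genes for transcription factors known to act with DLK and LZK in ganglion cell death, 1 rose, Sox11 at 2.14 ± 0.16 (adjusted p = 5.0e-11). Jun, Atf2 (-0.08, adjusted p = 0.50) and Mef2a (0.01, adjusted p = 0.90) did not pass.

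Of 16 genes of the endoplasmic reticulum stress and CHOP network 2 rose and none fell, with a median log2 change of 0.02. They were Eif2ak2, which encodes the double-stranded RNA sensor PKR, at 0.67 ± 0.10 (adjusted p = 1.8e-05), and Cebpb, a partner of CHOP, at 0.67 ± 0.10 (adjusted p = 1.7e-05). Atf4, the activator of Ddit3, stood at -0.07 ± 0.05 (adjusted p = 0.42), and the kinase gene Eif2ak3 (PERK) at -0.02 ± 0.06 (adjusted p = 0.88). Trib3, a target of CHOP, stood at 0.13 ± 0.12 (adjusted p = 0.58), and Hspa5, the chaperone BiP, at -0.04 ± 0.05 (adjusted p = 0.76). Of 5 axon degeneration genes, Sarm1 among them (0.04 ± 0.06, adjusted p = 0.76), 0 were called in limma (0 unadjusted). All 5 of 5 axon injury genes rose, among them Gap43 by 0.47 ± 0.12 (adjusted p = 0.0083) and Gal by 2.12 ± 0.35 (adjusted p = 6.2e-05). Ecel1 rose from 1.31 to 26.4 normalized counts in vehicle CTRL to 609 to 1270.5 in vehicle ONC, and Sprr1a, with a median of 0 in the uncrushed eyes of both arms, reached 41.8 to 129.6 in the crushed eyes.

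Variation between animals within a group was described from each library's deviation from its group mean on the log2 scale. Over 26 libraries, the deviations of Map2k7 and Mapk10 had r = 0.74, those of Jun and Atf3 r = 0.71, those of Map2k7 and Jun r = 0.64, and those of Atf3 and Ddit3 r = 0.62. These libraries share normalization and composition, and the values are a description. Composition moved with some members. The deviations of Mapk10 had r = 0.86 with the mean of amacrine and bipolar markers, 0.86 with that of ganglion cell markers, -0.75 with that of microglia markers and -0.62 with the library sum. Map2k7 had r = 0.58 with ganglion cell markers and -0.61 with microglia markers, and Map2k4 stayed between -0.10 and 0.11 for all marker lists and the library sum. Atf3 had r = 0.24 with ganglion cell markers and -0.06 with microglia markers, and Mapk9 0.35 and -0.23. With lens, pigment epithelium and muscle markers Atf3 had r = -0.49, Mapk9 -0.46 and Jun -0.50. Jun also had r = 0.54 with ganglion cell markers and 0.52 with Müller glia and astrocyte markers. The part of composition in the spread of Mapk10 and of these other genes was not tested.

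**Figure D5:**
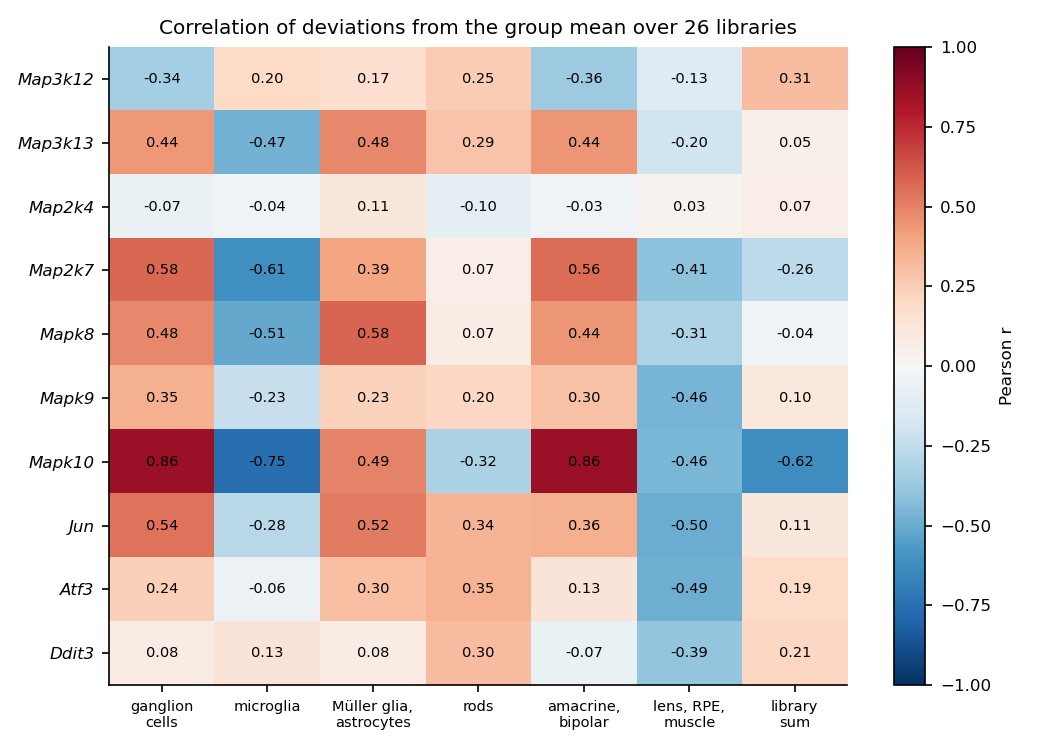
Pearson's r, over 26 libraries, between the deviation of each of the 10 genes from its group mean and the deviation of each cell type marker mean or of the library sum, with the colour scale running from -1 to 1. The strongest cells are those of Mapk10, at 0.86 with ganglion cell and with amacrine and bipolar markers and at -0.75 with microglia markers.

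The genes with the pattern most like that of each transcription factor were sought among 12418 genes with a mean of at least 50, by Pearson's r of log2(value + 1) over 26 libraries. For Atf3 they were Sox11 (r = 0.92), Ecel1 (0.91), Crym (0.90), Klhl29 (0.90) and Agtpbp1 (0.89). For Jun they were Sesn2 (0.83), Aars (0.82), Eif3c (0.82), Rbsn (0.82) and Arf3 (0.81), and for Ddit3 Os9 (0.70), Snapc2 (0.68), Slc29a2 (0.67), Snrpb (0.66) and H2afj (0.66). Over the 13 mouse responses the lists were led by Nek6 for Atf3 (r = 0.91), Sae1 for Jun (0.96) and Gsk3a for Ddit3 (0.90). Os9, a lectin of endoplasmic reticulum quality control, was the gene found for Ddit3 in both searches, the second time at r = 0.86. These are the highest of many values and carry no test.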

How the data were processed

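Per the submitters' processing notes, kallisto 0.46.1, DESeq2 (no version stated) and the mm10 build were used, and the authors describe the values as normalized counts. The deposited values are treated as signal: they are not whole, and whole reads were not recovered, so no count test was run and reads per library are unknown. Of 28 columns 2 with the same name were not used, and 26 symbols turned into dates (0.115% of the total) were left out. Values were analysed as log2(value + 1), which understates changes of low genes, for 15773 genes with a mean of at least 10, with limma 3.58.1 in R 4.3.3 (4 groups plus sex, trended prior, two-sided, Benjamini-Hochberg over all genes, threshold 0.05, 95% intervals). The sex by crush interaction came from 8 groups by sex. The labels pair the eyes of each animal. Deviations of paired eyes from their group means had a median correlation of 0.12 (-0.20 to 0.34), and the consensus correlation was -0.03. Single genes were also tested over 13 mice by exact sign-flip permutation (8192 patterns), without the adjustment over the 10 genes that had been planned. Correlations used 100000 permutations, or all orders within an arm. The fit was tested on simulated data. All 10 genes, the lists and the tests were chosen with earlier results of these data known. Named genes were the 10 members, up to 4 genes of each list with the smallest p, those behind counts up to 5, and the 5 most similar genes. Others named in the text, such as Fos, Jund, Map4k4, Mink1, Atf4, Eif2ak3, Trib3, Hspa5 and Mapk8ip3, were added for their known roles. GENCODE vM21 gave positions and lengths, and Ero1a was found under its older symbol Ero1l. Alternatives covered pseudocounts, filters, scaling, blocks, covariates, weights and the omission of each library.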

Additional observations from a re-analysis of the deposited data

Results flagged for a closer look

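Of 60 sets of values examined (each gene in each group and in the mouse responses of each arm), 4 held a sample far from the others by Dixon's criterion, and chance gives about 1 in 20. Atf3 in vehicle CTRL male D stood at 206.5 normalized counts, and Ddit3 in the same library at 771.2, each the highest of its group with a gap of 0.703 and 0.661 of the group's range. That library also had the highest rod marker sum and the lowest amacrine and bipolar marker sum of its group, and their part in these values was not tested. The Map2k7 response of RGFP966 male B was -0.4386 (log2, ONC minus CTRL), the lowest of 7 mice. Without that mouse the mean response was 0.19 (exact permutation p = 0.0088), against 0.14 (exact permutation p = 0.070) with all 13 mice. The mouse was picked by its response, so the lower p is a description. The Mapk8 response of vehicle female C was -0.2638, the lowest of 6 vehicle mice.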

How the results depend on the processing

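Atf3 kept its direction and its call in all 3 crush comparisons under every alternative run, with log2 changes of 1.07 to 1.28 in vehicle mice, 1.20 to 1.37 in RGFP966 mice and 1.17 to 1.32 over both arms. Among 10 genes, the number called in vehicle mice was 1 in place of 2 without the filter on the mean, with quantile normalization, with mouse as a fixed replicate block, without the sex covariate and with only the groups compared, Mapk9 being the call lost. It was 3 with libraries rescaled to the same total, where Map2k7 (adjusted p = 0.047) and Jun (adjusted p = 0.038) were gained and Mapk9 was lost (adjusted p = 0.35), and 1 to 2 when a library was left out. With that rescaling 6.8% of all genes tested were called in vehicle mice, 91.1% of them as higher. The share of all genes was 2.92% without the filter, 4.91% with quantile normalization and 4.86% with the fixed block. It was 4.69% without the sex covariate and 3.87% with only the groups compared. In RGFP966 mice the number of the 10 genes called was 2 with array weights, with Mapk9 added, where 6.03% of all genes were called. It was 1 to 2 when a library was left out, Mapk9 passing without RGFP966 CTRL female B (adjusted p = 0.033) or RGFP966 ONC male C (adjusted p = 0.019). Over both arms it was 4 with libraries rescaled to the same total (Atf3, Jun, Map2k7 and Ddit3), where 14.6% of all genes were called. It was also 4 with array weights (Atf3, Mapk9, Jun and Map2k7), where 13.6% of all genes were called. With mouse as a fixed replicate block Jun was gained over both arms (adjusted p = 0.039) and Mapk9 was lost in vehicle mice (adjusted p = 0.080). The block changed no other call of the 10 genes, and as a random effect it changed none. Over the 13 mice, the number of genes at an unadjusted exact p under 0.05 was 3 to 5 when a mouse was left out: without RGFP966 male B Map2k7 was added (p = 0.0088), without RGFP966 male C Mapk8 (-0.13, p = 0.015), without RGFP966 male D Map2k4 (-0.062, p = 0.041), and without vehicle male D Map2k7 (p = 0.037) and Ddit3 (p = 0.0498). In each of these the mouse left out had a response opposed to the mean, which lowers the p. The exact test was run on the 10 genes only, so no share over all genes stands beside these counts.

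Signs turned only for genes whose log2 changes were near 0. With libraries rescaled to the same total, log2 changes in vehicle mice were 0.12 for Map3k13, 0.028 for Map2k4 and 0.025 for Mapk8. In RGFP966 mice they were 0.067 for Map2k4, 0.011 for Mapk8 and 0.053 for Mapk10, and over both arms 0.077 for Map3k12, 0.048 for Map2k4, 0.018 for Mapk8 and 0.024 for Mapk10. That rescaling moved the median of all genes in vehicle mice from -0.01 to 0.10. With quantile normalization Map3k13 read 0.0021 in vehicle mice and Map3k12 0.014 over both arms. With array weights Map3k13 read 0.019 in vehicle mice and Map2k4 0.0063 in RGFP966 mice. When a library or mouse was left out, Map3k13 in vehicle mice ran from -0.039 to 0.041, Map2k4 in RGFP966 mice from -0.043 to 0.020, Mapk10 in RGFP966 mice from -0.12 to 0.063, and Map3k12 over both arms from -0.036 to 0.0095. Per mouse, Map3k12 ran from -0.058 to 0.0056 and Map3k13 from -0.011 to 0.075. The correlation of Jun with Atf3 responses was 0.65 with a pseudocount of 5 (adjusted p = 0.049), that of Jun with ganglion cell markers was -0.098 within vehicle mice and 0.94 within RGFP966 mice, and that of Jun with Ddit3 was -0.052 within RGFP966 mice. Apart from what the alternatives themselves change, the cause was not tested. No comparison of drug or sex gained a call among the 10 genes under any alternative run. Reads per library are unknown, which limits what can be said of the lowest genes.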
